A study of Mus musculus with 4 samples.

Results

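The TAM receptors Axl, Mertk and Tyro3 and their ligands Gas6 and Pros1 were followed across the cell classes of the mouse hippocampus in single-nucleus RNA sequencing data. The 5 genes were chosen by symbol, and each matched 1 of the 55403 features counted. TAM receptors are receptor tyrosine kinases that bind a vitamin K-dependent ligand, which in turn binds phosphatidylserine on dying cells, shed membranes and myelin debris. Gas6 (growth arrest specific protein) is a ligand of Axl, Mertk and Tyro3, while protein S, the product of Pros1, is known as a ligand of Mertk and Tyro3. In the brain, Mertk is known for the engulfment of cells and synapses by microglia and astrocytes, Axl is known as a receptor that inflammation raises in phagocytes, and Tyro3 is known in neurons and myelinating cells.

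By GENCODE release M21 on mouse build GRCm38, Axl (ENSMUSG00000002602.16) lies on chromosome 7 from 25757273 to 25788705, on the minus strand. Mertk (ENSMUSG00000014361.5) lies on chromosome 2 from 128698956 to 128802894, and Tyro3 (ENSMUSG00000027298.17) on the same chromosome from 119797733 to 119818104, both on the plus strand. Gas6 (ENSMUSG00000031451.6) lies on chromosome 8 from 13465374 to 13494490, on the minus strand, and Pros1 (ENSMUSG00000022912.8) on chromosome 16 from 62854307 to 62929346, on the plus strand. All 5 are protein-coding genes.

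The nuclei came from frozen, pooled hippocampus of 3 genotypes, with 1 wild-type library (WT), 2 libraries of PS19 mice and 1 library of mice carrying PS19 together with a SORLA transgene (TG_PS19). PS19 mice express mutant human tau (P301S, isoform 1N4R) from a MAPT transgene under the prion protein (Prnp) promoter on a mixed B6;C3 background. The SORLA transgene sits in the Rosa26 locus and overexpresses the sorting receptor from a CMV/β-actin promoter element, so that it is not limited to a cell type. How many animals a pool held, and of which age and sex, is not given in the sources used here, nor is it stated that the PS19 libraries are from different pools. P-values therefore measure only the spread between these samples, which may be technical.

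The libraries held 4643 to 12762 barcodes and 20064025 to 48670533 unique molecular identifiers (UMIs), with medians of 2643 to 3708.5 UMIs per nucleus. After filters and doublet removal 11458 WT, 4467 and 4728 PS19 and 8963 TG_PS19 nuclei remained. Library pairs shared 5 to 32 barcodes. Human MAPT had 0 UMIs in the WT library, a count that limits it to 0.0616 counts per 1000000 UMIs (CPM), and reached 17.8 and 18.7 CPM in the PS19 libraries and 12.5 CPM with the SORLA transgene, while human SORL1 stood at 65.1 CPM in TG_PS19 and at most 0.349 CPM elsewhere. TG_PS19 stood apart in its sex makeup: 4578 of its nuclei had UMIs of Xist and none of Y-linked genes and 2160 the reverse, against 5 to 27 nuclei with Xist alone in each of the other libraries, where Y-linked UMIs alone were seen in 3207 to 7783 nuclei and neither kind in 1091 to 3581. The groups therefore also differ in sex, and called results in TG_PS19 whose counting intervals part are given for both kinds of nuclei. There were 13 tested groups of nuclei, 12 of them named by resemblance to marker lists and 1 left unnamed. The unnamed group had Enpp6, Anln and Hapln2 among its leading genes, raised 8 of 8 oligodendrocyte markers, and is called the Enpp6 cluster. In every one of the 12 named classes, no defining marker of the class was at 0 in any library. The same lists had named the classes, which partly sets this. A count above 0 also does not mark a class by itself, as no oligodendrocyte marker was at 0 in microglia either.

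Each member had its own distribution over cell classes, as the plot of levels by class and library shows. Levels are CPM of the UMIs summed over the nuclei of a class in a library, and they are compared between classes and libraries, not between genes. An order of classes covers the 13 tested groups only. Fewer molecules per nucleus and a smaller share of nuclei with the gene cannot be told apart from such sums alone, so shares of nuclei are given where a result turns on them.

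**Figure D1:**
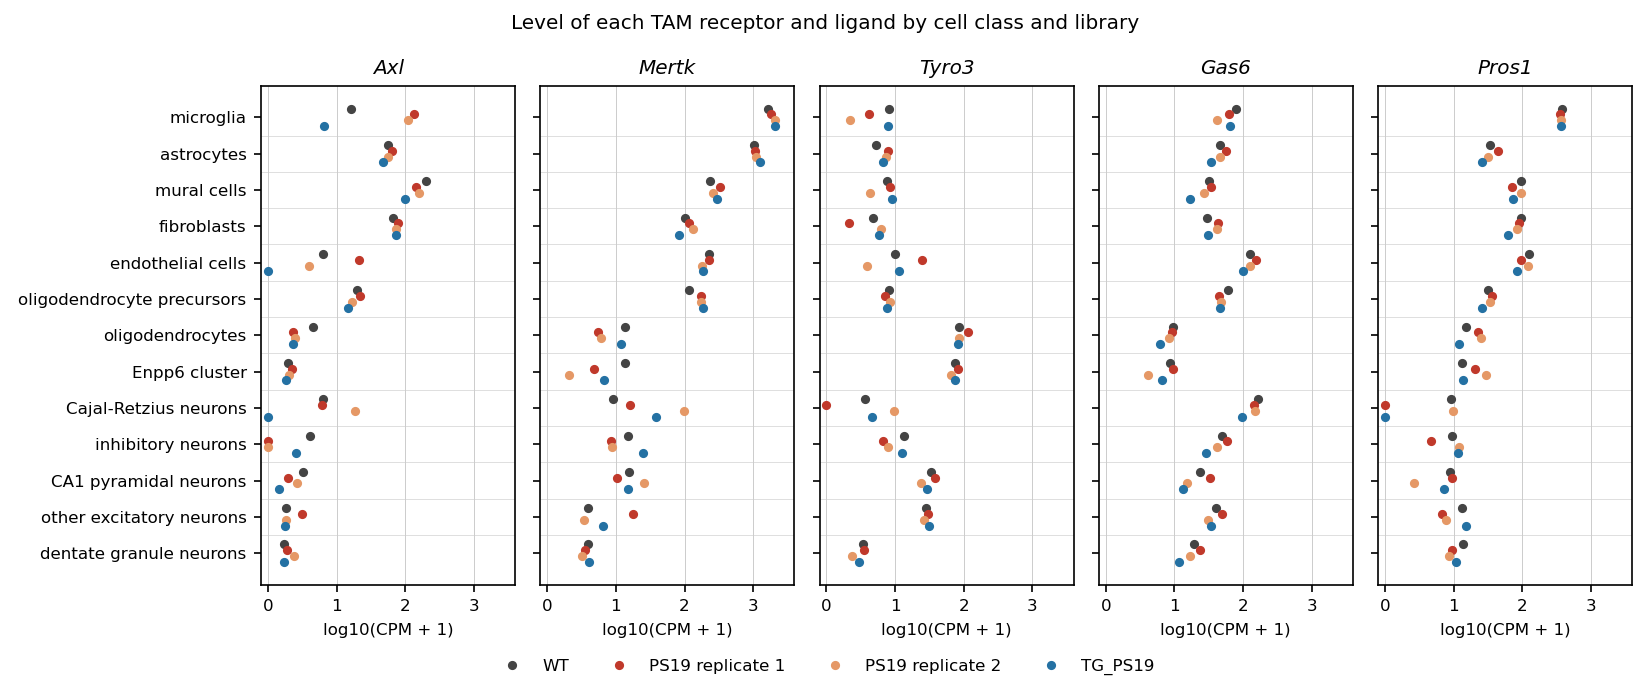
Each panel plots 1 gene, with log10(CPM + 1) on the x axis and the 13 tested groups of nuclei on the y axis; each point is 1 library, coloured by genotype and replicate. Axl in microglia spreads from 5.51 to 134 CPM over the libraries, while Mertk and Pros1 in the same nuclei lie close together.

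Mertk was highest in microglia, with 1656 CPM in WT, 1817 and 2089 CPM in the PS19 libraries and 2111 CPM in TG_PS19. Astrocytes followed with 1040 CPM in WT, 1059 and 1115 CPM in the PS19 pair and 1272 CPM in TG_PS19. The 2 classes did not overlap, and both stood well above mural cells (238 to 325 CPM over the 4 libraries), endothelial cells (177 to 226 CPM) and oligodendrocyte precursors (116 to 183 CPM). Mural and endothelial ranges did not overlap, whereas those of endothelial cells and precursors did. Dentate granule neurons had little Mertk, from 2.20 to 3.03 CPM. At least 1 Mertk UMI was found in 85.7% to 94.8% of microglia and in 85.7% to 92.9% of astrocytes, at median depths of 1604 to 2587 and 2863 to 4504 UMIs. Dentate granule neurons, which gave the background, had a Mertk UMI in 2.0% to 2.52% of nuclei at medians of 6487 to 10121 UMIs. Because astrocytes were many, they held 58.8% to 74.3% of all Mertk UMIs of a library, and microglia 15.4% to 28.7%.

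Axl had its highest mean over the libraries in mural cells, the pericytes and smooth muscle cells of vessels, with 198 CPM in WT, 142 and 158 CPM in the PS19 pair and 99.1 CPM in TG_PS19. Fibroblasts ranged from 64.3 to 78.4 CPM and astrocytes from 47.1 to 62.4 CPM, so that these 2 ranges did not overlap each other or the mural range. Microglia, treated next, ranged from 5.51 to 134 CPM and overlapped all of these. Dentate granule neurons (0.721 to 1.35 CPM) and oligodendrocytes (1.28 to 3.6 CPM) had almost none. Tyro3 was highest in oligodendrocytes, with 84.1 CPM in WT, 113 and 84.5 CPM in the PS19 pair and 82.1 CPM in TG_PS19. The Enpp6 cluster came next at 64.4 to 81.5 CPM, then CA1 pyramidal neurons at 22.8 to 36.6 CPM and the other excitatory neurons at 25.4 to 29.8 CPM, whose ranges overlapped. Dentate granule neurons, although excitatory, had 1.35 to 2.52 CPM of Tyro3, below the 5.60 to 12.5 CPM of inhibitory neurons.

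Of the ligands, Gas6 was highest, among the tested groups, in Cajal-Retzius neurons, the early-born neurons of the outer layers, with 164 CPM in WT, 146 and 149 CPM in the PS19 pair and 95.7 CPM in TG_PS19, and in endothelial cells, with 99.2 to 155 CPM. These 2 ranges overlapped, and microglia followed at 40.6 to 78.6 CPM. Oligodendrocytes (5.15 to 8.55 CPM) and the Enpp6 cluster (3.14 to 8.71 CPM) were lowest. Pros1 was highest in microglia and varied little there, with 379 CPM in WT, 360 and 370 CPM in the PS19 pair and 368 CPM in TG_PS19. Endothelial cells (83.6 to 123 CPM), mural cells (69.4 to 95.3 CPM) and fibroblasts (60.2 to 94.6 CPM) followed with overlapping ranges. Microglia thus held Mertk RNA beside RNA of both ligands.

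Tests across all genes were made on the summed counts of each class with edgeR's quasi-likelihood test and Benjamini-Hochberg adjustment, over all 4 libraries. WT and TG_PS19 had 1 library each and were assumed to vary like the PS19 pair, which left 1 residual degree of freedom. Of 65 pairs of a member and a group of nuclei, 50 passed the filter on low counts: Axl in 6 groups, Tyro3 in 7, Gas6 and Pros1 in 12 each and Mertk in 13. In PS19 against WT, 3 of the 50 pairs were called at an adjusted p under 0.05 (1 higher and 2 lower), against 2.43% of all gene and class pairs tested (1.16% higher and 1.27% lower). In TG_PS19 against PS19, 6 of 50 were called, 3 in each direction, against a background of 4.25% (2.81% higher and 1.44% lower). In TG_PS19 against WT, 1 of 50 was called, higher, against 1.8% (1.29% higher and 0.507% lower). The first 2 comparisons share the PS19 libraries, so that opposite changes in them are partly 1 measurement. The median log2 fold change over the 50 pairs was −0.04, −0.10 and −0.21 in the 3 comparisons.

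**Figure D2:**
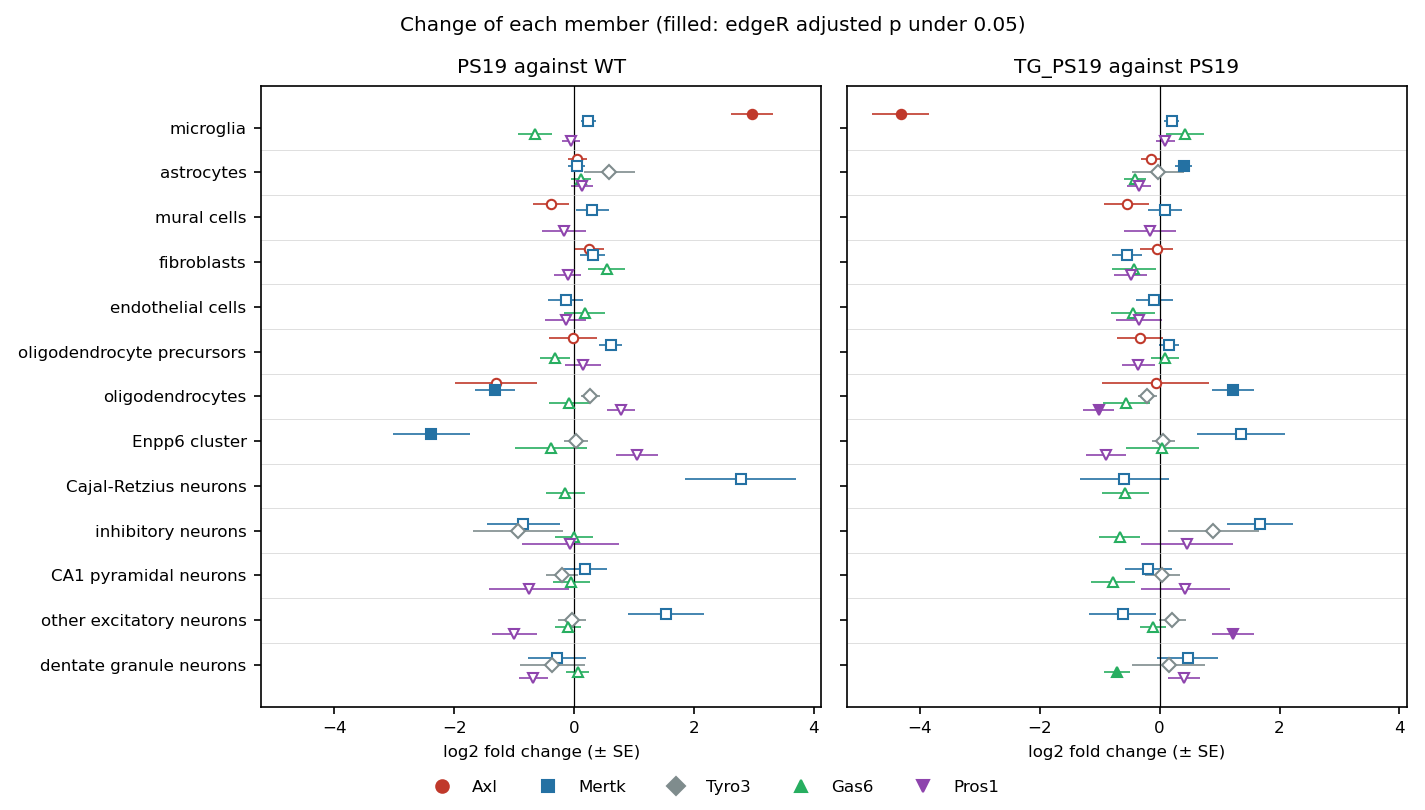
Log2 fold change of each member (x axis, bars ± SE of the edgeR fit) in every group of nuclei where it was tested (y axis), for PS19 against WT on the left and TG_PS19 against PS19 on the right; filled symbols have an adjusted p under 0.05. Axl in microglia lies at 2.97 on the left and −4.32 on the right, and the other members in microglia lie between −0.65 and 0.42.

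Axl was the member that changed most. WT microglia had 15.1 CPM of Axl (95% Poisson interval 8.46 to 24.9). PS19 microglia had 134 CPM (107 to 166) in replicate 1 and 107 CPM (85.7 to 132) in replicate 2, and TG_PS19 microglia 5.51 CPM (1.5 to 14.1). Both PS19 libraries were high and the other 2 low, with no overlap of their counting intervals. These levels rest on 15, 85, 87 and 4 UMIs. For PS19 against WT edgeR's quasi-likelihood test put the log2 fold change at 2.97 (SE 0.35, adjusted p 9.72e-15), where 8.84% of microglial genes were called. For TG_PS19 against PS19 it was −4.32 (SE 0.48, adjusted p 6.23e-17), with 9.21% called. TG_PS19 against WT was not called, where 0.963% of microglial genes were. DESeq2 gave 3.0 (adjusted p 0.00631) and −4.37 (adjusted p 0.00103).

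A larger share of PS19 microglia held the transcript. At least 1 Axl UMI was seen in 2.04% of WT microglia, in 23.9% and 18.2% of PS19 microglia and in 0.973% of TG_PS19 microglia. In dentate granule neurons, the background, the shares were 0.5%, 0.826%, 1.10% and 0.604% in the same order. With nuclei thinned to 1000 UMIs, which left out 31, 2, 1 and 16 shallower microglia, the shares were 1.26%, 12.3%, 10.2% and 0.759%, and those of granule neurons at most 0.366%. The TG_PS19 share without thinning rests on 4 nuclei. Of the microglia with an Axl UMI, 10 of 12 (WT), 59 of 61 and 48 of 52 (PS19) and 4 of 4 (TG_PS19) also held a Mertk UMI. So did 493 of 575 (WT), 181 of 194 and 223 of 234 (PS19) and 373 of 407 (TG_PS19) of those without Axl. A UMI of Gas6 or Pros1 was found in 36 of 61 and 34 of 52 of the PS19 microglia with Axl, and in 106 of 194 and 147 of 234 of those without.

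The microglial class was made of 2 clusters, and 1 of them held PS19 nuclei for the most part. The smaller cluster, led by Apobec1, Ly86 and Cd84, had 114 and 123 PS19 nuclei, 8 WT nuclei and 1 TG_PS19 nucleus. In it Axl stood at 232 CPM (182 to 292) and 182 CPM (142 to 229) in PS19, where 43.0% and 31.7% of nuclei had an Axl UMI, and the 8 WT nuclei held 8 UMIs (429 CPM, 185 to 844). In the larger cluster the levels were 7.19 CPM (2.89 to 14.8) in WT, 37.7 CPM (19.5 to 65.9) and 37.9 CPM (21.7 to 61.5) in PS19 and 5.52 CPM (1.51 to 14.1) in TG_PS19. The PS19 libraries were again the high ones, but the fit of this cluster alone made no call: edgeR gave 2.36 for PS19 against WT (SE 0.76, adjusted p 0.0674) and −2.65 for TG_PS19 against PS19 (SE 0.86, adjusted p 0.0669), where 2.64% and 2.68% of genes were called. This restriction was added after the data had been seen. In the larger cluster Axl passed the filter on low counts only through the PS19 libraries, so that the direction of its change was set beforehand.

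**Figure D3:**
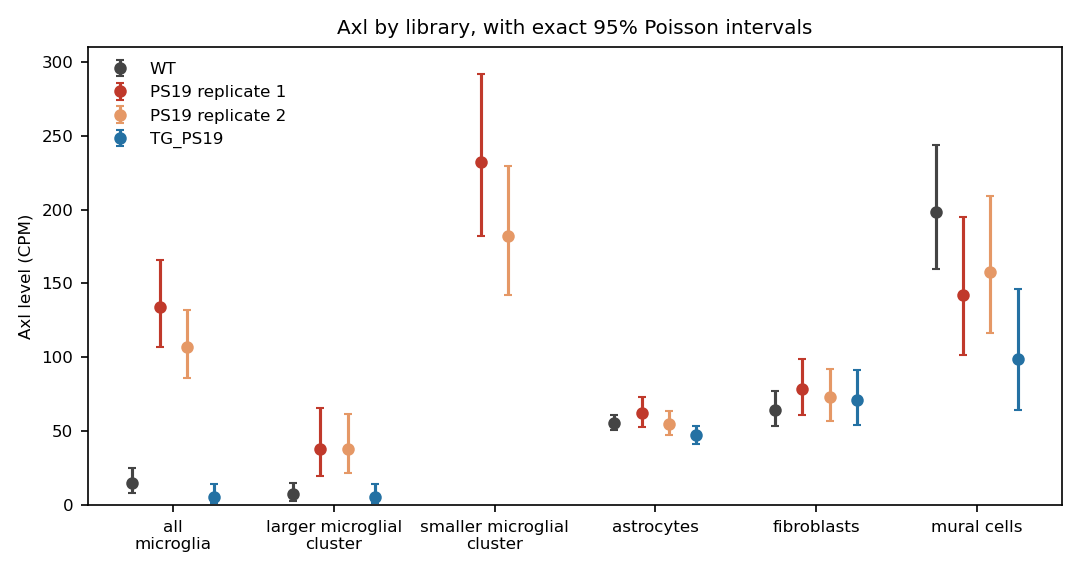
Axl level in CPM (y axis, from 0) by library, as points with exact 95% Poisson intervals, for all microglia, their 2 clusters, and 3 other classes; libraries with under 50 nuclei in a group are not drawn. Both PS19 libraries lie above WT and TG_PS19 in microglia, whereas astrocytes stay between 47.1 and 62.4 CPM and fibroblasts between 64.3 and 78.4 CPM.

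Grouping microglia by UMIs of 13 genes raised in disease-associated microglia (Clec7a, Itgax, Lpl, Cst7 and others, without Axl) kept the Axl levels of both PS19 libraries above those of the other 2, though not always beyond counting error. Among nuclei with 3 or more such UMIs, Axl stood at 27.3 CPM in 119 WT nuclei, at 148 and 125 CPM in 187 and 197 PS19 nuclei and at 7.18 CPM in 66 TG_PS19 nuclei. Among nuclei with 1 or 2 it stood at 12.4 CPM (WT), 76.6 and 47.0 CPM (PS19) and 5.20 CPM (TG_PS19). Nuclei with none numbered only 9 and 17 in PS19, with 2 and 4 Axl UMIs. Depth differed between libraries: nuclei with 3 or more had medians of 1783 (WT), 2467 and 2726 (PS19) and 1899 UMIs (TG_PS19). Thinned to 1000 UMIs, PS19 nuclei with 0, with 1 or 2 and with 3 or more of these UMIs had 104, 113 and 172 CPM of Axl in replicate 1 and 79.4, 95.2 and 187 CPM in replicate 2, with overlapping counting intervals. Thinned Mertk in the same PS19 nuclei was 1938, 1953 and 1535 CPM in replicate 1 and 2079, 2088 and 1813 CPM in replicate 2. It was lowest in the nuclei with the most of these UMIs, but the counting intervals overlapped here as well.

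Markers of border macrophages were looked at beside this result. The 7 markers summed to 14.1 CPM in WT microglia, 28.4 and 20.9 CPM in the PS19 pair and 1.38 CPM in TG_PS19, and thus moved in the same direction as Axl; their part in the result was not tested. Of the 7 markers, 3, 5, 4 and 6 were at 0 in the same order of libraries, Cd163 and Lyve1 in all 4. In TG_PS19 the 4 Axl UMIs were in nuclei called by Xist (9.55 CPM, interval 2.60 to 24.5). Nuclei called by Y-linked UMIs had 0 Axl UMIs among 145208, which allows up to 20.7 CPM. Both values are below the PS19 intervals.

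The change of Axl was particular to microglia among the 5 classes compared. In PS19 against WT, the log2 change in microglia exceeded that in astrocytes by 2.98 (SE 0.39), in fibroblasts by 2.71 (SE 0.44), in mural cells by 3.33 (SE 0.47) and in oligodendrocyte precursors by 3.01 (SE 0.56). The edgeR test of a class by group term called all 4 differences, with adjusted p from 1.68e-11 to 0.000809, where 2.36%, 1.95%, 0.853% and 0.998% of genes were called. In TG_PS19 against PS19 the differences ran from −4.27 to −3.73 with adjusted p from 2.41e-12 to 7.07e-05, against backgrounds of 1.68%, 1.57%, 0.898% and 1.07%. Both classes of such a test come from the same 4 libraries, and the test was chosen after the calls had been seen. In these other classes Axl itself was not called in any comparison; in astrocytes it was 55.6 CPM in WT, 62.4 and 55.1 CPM in the PS19 pair and 47.1 CPM in TG_PS19.

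Because Axl and Mertk differed in this way within the same nuclei, the 250 bases before their transcription starts are shown, from RefSeq on GRCm38.p6, read on each gene's own strand. Capitals mark GC boxes (GGGCGG on either strand), the binding motif of Sp factors. Axl lies at chr7:25788734-25788983 on the minus strand and Mertk at chr2:128698665-128698914 on the plus strand.
Axl: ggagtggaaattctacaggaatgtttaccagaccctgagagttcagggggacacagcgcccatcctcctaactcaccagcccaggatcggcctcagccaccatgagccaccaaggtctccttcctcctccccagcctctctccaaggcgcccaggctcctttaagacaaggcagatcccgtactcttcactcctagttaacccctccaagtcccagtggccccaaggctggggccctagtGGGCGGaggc
Mertk: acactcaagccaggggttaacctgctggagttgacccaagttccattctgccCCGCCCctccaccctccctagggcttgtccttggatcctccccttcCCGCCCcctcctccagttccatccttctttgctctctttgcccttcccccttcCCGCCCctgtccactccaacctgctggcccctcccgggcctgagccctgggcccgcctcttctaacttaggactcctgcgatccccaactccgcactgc
The Axl window had 1 GC box, ending close to the start, and a G+C content of 60%, and the Mertk window had 3 GC boxes and 63.6%. Of 32851 promoters of this length, 32.7% held a GC box, and the median G+C content was 52.4%. The Axl window also held GAGGAA, the core letters bound by PU.1, on the opposite strand, as did 23.3% of all promoters. The letters searched for AP-1 (TGACTCA, in 4.46% of all promoters), STAT factors (TTCNNNGAA, 7.02%), TATA boxes (TATAAA, 12.4%) and E-boxes (CACGTG, 6.02%), on both strands, were in neither window. The PU.1 core and the GC box of the Axl window do not overlap, and a match or its absence here describes letters only.

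Mertk in microglia was not called: its log2 fold change was 0.24 (SE 0.13) in PS19 against WT and 0.20 (SE 0.13) in TG_PS19 against PS19. The class by group test against astrocytes made no call, with differences of 0.24 (SE 0.26) and −0.25 (SE 0.26) and edgeR adjusted p of 0.839 and 0.838. In astrocytes Mertk rose in TG_PS19 against PS19 by 0.40 (SE 0.14, edgeR adjusted p 0.0475), close to the threshold, where 8.63% of astrocyte genes were called. It was not called in 9 of 12 alternatives. Scaling by library totals moves the median of all astrocyte genes by −0.17 in this comparison and leaves 0.23 for Mertk (adjusted p 0.215). The 2 kinds of TG_PS19 nuclei parted for this gene. Mertk stood at 1567 CPM (1520 to 1615) in 830 astrocytes called by Xist and at 953 CPM (905 to 1003) in 453 called by Y-linked UMIs, which is below both PS19 libraries and WT. Fitted with Y-called TG_PS19 nuclei alone, the change was −0.036 (adjusted p 0.945), and with Xist-called nuclei alone 0.72 (adjusted p 2.55e-05). Sex, and whatever else differs between the animals that gave these nuclei, cannot be told apart in this pool.

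**Figure D4:**
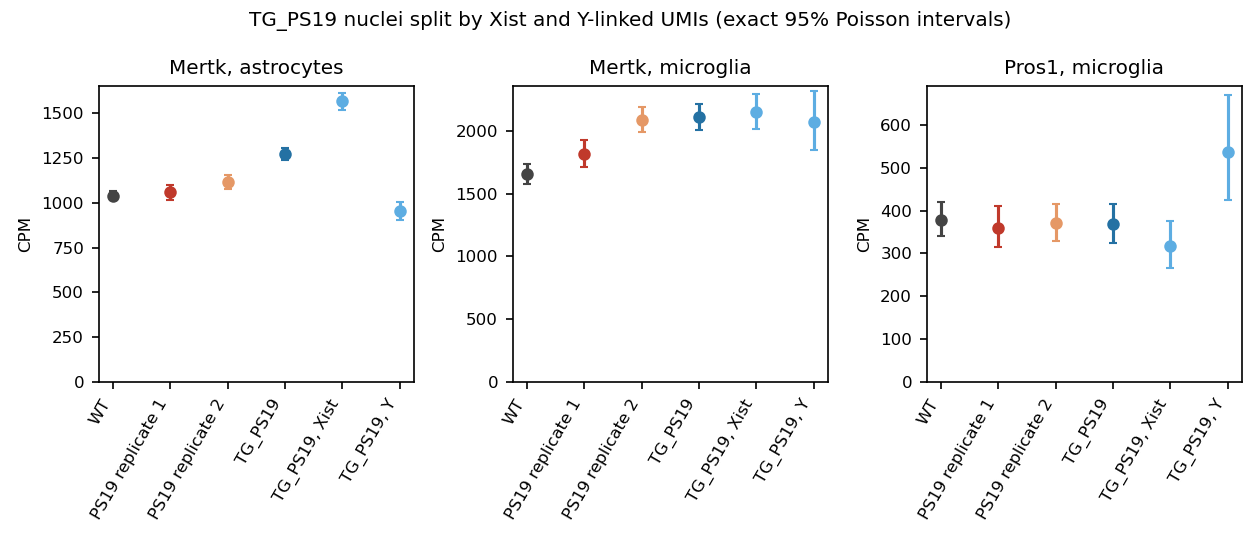
Levels in CPM (y axis, from 0) with exact 95% Poisson intervals for the 4 libraries and, at the right of each panel, for TG_PS19 nuclei called by Xist or by Y-linked UMIs. Mertk in astrocytes parts into 1567 and 953 CPM, while Mertk in microglia gives 2152 and 2073 CPM with overlapping intervals.

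Oligodendrocyte precursors of WT had 116 CPM of Mertk, those of PS19 175 and 172 CPM and those of TG_PS19 183 CPM, so that WT was the low library. Mertk was called here in TG_PS19 against WT, with 0.77 (SE 0.21, edgeR adjusted p 0.0327; 0.785% of genes called), and not in PS19 against WT, with 0.61 (adjusted p 0.204). It was called in 6 of 12 alternatives. In TG_PS19 the level was 220 CPM (195 to 248) in precursors called by Xist and 145 CPM (116 to 179) in those called by Y-linked UMIs.

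Mertk was low in oligodendrocytes and called there in both comparisons. The levels were 12.6 CPM in WT, 4.49 and 5.17 CPM in the PS19 pair and 11.1 CPM in TG_PS19, from 56, 14, 21 and 43 UMIs. PS19 against WT gave −1.32 (SE 0.33, edgeR adjusted p 0.0255) and TG_PS19 against PS19 gave 1.23 (SE 0.35, adjusted p 0.0497), where 4.18% and 5.01% of genes were called. In the Enpp6 cluster Mertk stood at 12.6 CPM in WT, 3.73 and 1.05 CPM in the PS19 pair and 5.69 CPM in TG_PS19, from 26, 6, 2 and 14 UMIs, and PS19 fell by 2.38 against WT (SE 0.65, edgeR adjusted p 0.0152), where 2.23% of genes were called. Without PS19 replicate 1 the latter value was −3.45 and without replicate 2 it was −1.71. In the Enpp6 cluster Mertk passed the filter on low counts through WT and TG_PS19, not through the PS19 libraries. Markers of the classes richest in Mertk moved the same way in these nuclei. The 9 astrocyte markers summed to 467, 213, 198 and 356 CPM in oligodendrocytes in the order WT, PS19, PS19 and TG_PS19, and to 552, 312, 265 and 424 CPM in the Enpp6 cluster. The 9 microglial markers summed to 202, 125, 84.3 and 144 CPM in oligodendrocytes. Their part in the result was not tested. Thinned to 1000 UMIs, Mertk in oligodendrocytes was called in neither comparison (adjusted p 0.662 and 0.228). DESeq2 gave an adjusted p of 1 for PS19 against WT and none for the other comparison. The edgeR calls were kept in 8 of 10 and 7 of 11 alternatives.

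Tyro3 was called in no class and no comparison. It was tested in 7 groups of nuclei, where adjusted p ran from 0.441 upward, and 0 of its 21 tests had an unadjusted p under 0.05; DESeq2 also called 0. In oligodendrocytes, PS19 replicate 1 stood alone at 113 CPM (102 to 126), while the other 3 libraries lay between 82.1 and 84.5 CPM. The PS19 pair thus differed more from each other than WT differed from TG_PS19.

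Of the ligands, Gas6 was called in dentate granule neurons. Its level there was 18.4 CPM in WT, 22.5 and 16.1 CPM in the PS19 pair and 10.8 CPM in TG_PS19, so that TG_PS19 was the lowest library. TG_PS19 fell by 0.72 on the log2 scale against PS19 (SE 0.22, edgeR adjusted p 0.017), where 9.2% of genes were called, and the change against WT was −0.65 (adjusted p 0.0663). Without PS19 replicate 2 the first value was −0.95 and without replicate 1 it was −0.49. The call was kept in 9 of 12 alternatives and lost with DESeq2 (adjusted p 0.761), with thinning (−0.28, adjusted p 0.908) and with Y-called nuclei (−0.58, adjusted p 0.354). Gas6 had a negative log2 fold change in TG_PS19 against PS19 in 9 of 12 groups of nuclei, 3 of which had an unadjusted p under 0.05, but the groups share their libraries and only the granule neurons passed the threshold. In PS19 against WT Gas6 was not called anywhere by edgeR; 1 of 12 tests had an unadjusted p under 0.05 (microglia, −0.65), and 0 calls came from DESeq2.

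Pros1 moved in opposite directions in 2 classes in TG_PS19 against PS19. In oligodendrocytes it stood at 13.9 CPM in WT, 21.8 and 24.4 CPM in the PS19 pair and 11.1 CPM in TG_PS19, with both PS19 libraries high. It fell by 1.02 on the log2 scale in TG_PS19 (SE 0.25, edgeR adjusted p 0.0213), where 5.01% of genes were called. In the other excitatory neurons it stood at 12.3 CPM in WT, 5.71 and 6.86 CPM in the PS19 pair and 14.1 CPM in TG_PS19, with both PS19 libraries low, and rose by 1.23 (SE 0.35, adjusted p 0.0436), where 3.13% were called. The class by group term put the difference between the classes at −2.27 (SE 0.45, edgeR adjusted p 0.00425), where 0.311% of genes were called. This test was chosen after Pros1 had been called in opposite directions in these classes, and it uses the same libraries. The choice thus partly set its outcome. The call in oligodendrocytes was kept in 8 of 11 alternatives and that in the neurons in 4 of 9, and DESeq2 gave no adjusted p for either. TG_PS19 neurons called by Xist had 19.1 CPM (13.6 to 26.3) and those called by Y-linked UMIs 5.33 CPM (2.30 to 10.5). With Y-called TG_PS19 nuclei alone, the change in the other excitatory neurons was −0.15 (adjusted p 0.954) and that in oligodendrocytes −0.27 (adjusted p 0.769). The Enpp6 cluster showed an order like that of oligodendrocytes, with 12.1 CPM in WT, 19.3 and 28.8 CPM in the PS19 pair and 12.6 CPM in TG_PS19, and was not called. Microglial markers in oligodendrocytes summed to 202 CPM in WT, 125 and 84.3 CPM in the PS19 pair and 144 CPM in TG_PS19; their part was not tested. In microglia, the class with its highest level, Pros1 was not called in any comparison.

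The other genes of the pathway were read from 8 lists of 52 genes in all: carboxylation of the ligands, shedding of the receptors, other ligands, exposure of phosphatidylserine, other receptors and bridging proteins for it, engulfment, signalling and feedback, and lipid-sensing nuclear receptors with a target. In microglia 39 of them were tested. In PS19 against WT, 8 were called higher and 4 lower, against 4.67% and 4.18% of all microglial genes, and the median log2 fold change of the 39 was 0.12 against 0.01 for all genes. In TG_PS19 against PS19, 3 were called higher and 8 lower, against 4.67% and 4.54%, with a median of −0.05. Astrocytes had 4 called higher and 4 lower of 44 in PS19 against WT, against 5.23% of genes (2.98% and 2.24%), and 4 higher and 5 lower in TG_PS19 against PS19, against 8.63% (5% and 3.63%). In TG_PS19 against WT edgeR called 0 of 39 in microglia and 0 of 44 in astrocytes, where 0.963% and 2.39% of all genes were called. An unadjusted p under 0.05 was found for 3 and 7 of them, and 0 were called by DESeq2 in either class.

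Among other ligands, Lgals3 (galectin-3, a ligand of Mertk) had 1 UMI in WT microglia (1.01 CPM), 30.02 and 20.9 CPM in the PS19 pair and 0 UMIs in TG_PS19. The PS19 mean of 25.5 CPM ± 6.44 (SD, n = 2) was 6.16-fold above the limit of 3 counts in TG_PS19 (4.13 CPM). That ratio leaves out the counting error of the PS19 values (intervals 18.1 to 46.9 and 12.2 to 33.5 CPM). EdgeR called both comparisons (adjusted p 0.00112 and 0.00103). With 1 UMI in WT and 0 in TG_PS19, Lgals3 passed the filter on low counts only through the PS19 libraries. The direction of a call was thus set beforehand. Mfge8, a secreted bridge between phosphatidylserine and integrins, took the opposite course. In microglia it stood at 42.3 CPM in WT, 4.74 and 8.61 CPM in the PS19 pair and 42.7 CPM in TG_PS19, with log2 fold changes of −2.59 and 2.69 (edgeR adjusted p 2.36e-06 and 3.77e-06). WT and TG_PS19 were alike here and the PS19 pair apart, as for Axl in the other direction. Mfge8 passed the filter on low counts only through WT and TG_PS19, so that the direction of a call was set beforehand here too.

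Cd300lf, a phosphatidylserine receptor of myeloid cells, stood at 152 CPM in WT microglia, 327 and 315 CPM in the PS19 pair and 149 CPM in TG_PS19, with changes of 1.07 and −1.02 (edgeR adjusted p 1.85e-07 and 5.51e-06). Abca1, the cholesterol exporter and a target of the liver X receptors, rose by 0.68 in PS19 microglia and by 0.71 in PS19 astrocytes (edgeR adjusted p 0.00047 and 3.15e-05). Elmo1, an adaptor for engulfment, was 3768 CPM in TG_PS19 microglia against 2053 and 2168 CPM in PS19, a change of 0.92 (edgeR adjusted p 8.09e-12). WT microglia had 3295 CPM of Elmo1, so that the PS19 pair lay below both other libraries. Socs3, a feedback inhibitor of cytokine signalling that TAM receptors are known to induce, changed most in astrocytes. It had 1.57 CPM in WT astrocytes, 18.9 and 15.9 CPM in the PS19 pair and 1.19 CPM in TG_PS19, with changes of 3.42 and −3.66 (edgeR adjusted p 1.63e-13 and 3.44e-11). In microglia Socs3 rose by 2.13 in PS19 (edgeR adjusted p 0.0199). WT and TG_PS19 held 12 and 6 Socs3 UMIs in astrocytes and 6 and 6 in microglia. In both classes Socs3 thus passed the filter on low counts only through the PS19 libraries. The direction of its calls was set beforehand. In the larger microglial cluster alone 11 of the 12 genes called in PS19 against WT were tested, all but Lgals3. All 11 kept their direction, and edgeR called 3 of them, Mfge8, Cd300lf and Atp8a2, a flippase. Of the 11 called in TG_PS19 against PS19, 10 were tested, again without Lgals3. All of these kept their direction and 5 were called. The larger cluster is part of the nuclei in which these genes were called, so that a kept direction was partly built in. The directions of Mfge8 and Socs3 were also set by the filter, as given above. Markers of some other cells moved with the PS19 libraries in microglia. Border macrophage markers did so as given for Axl. In the order WT, PS19, PS19 and TG_PS19, the 9 astrocyte markers summed to 658, 476, 484 and 638 CPM, the 8 oligodendrocyte markers to 1160, 768, 924 and 1075 CPM and the 7 granule neuron markers to 1953, 1517, 1621 and 1953 CPM, all lowest in PS19 as Mfge8 was. Not every list was lowest in PS19. In the same order, the precursor markers summed to 73.6, 224, 40.6 and 99.2 CPM and the endothelial markers to 101, 175, 117 and 75.8 CPM. The 9 microglial markers themselves were lower in PS19, with 13546, 11055, 10077 and 12497 CPM. The part of these markers in the pathway results was not tested.

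**Figure D5:**
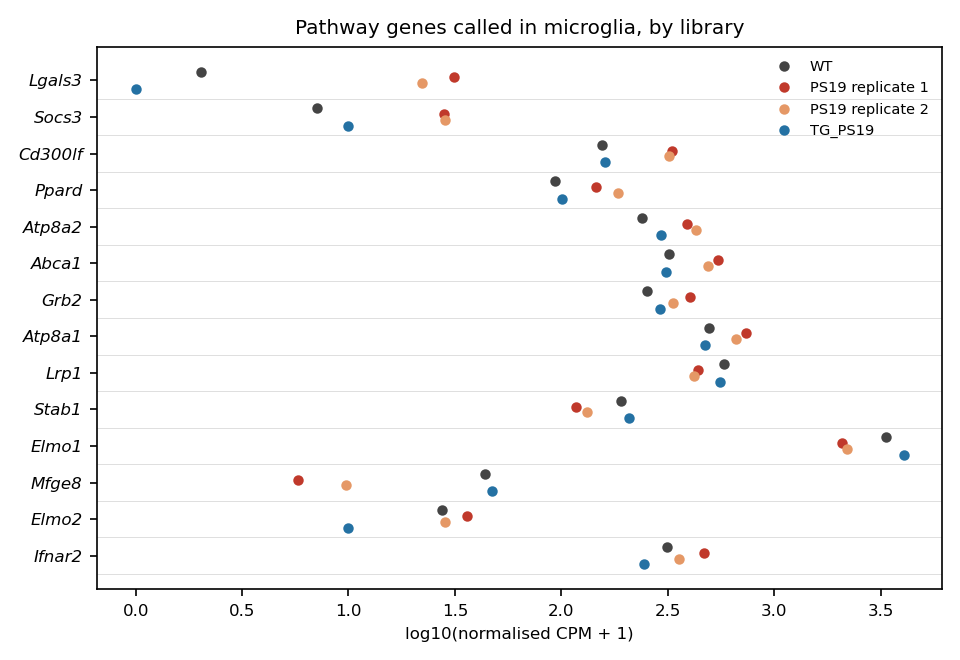
Microglial level of every pathway gene called in PS19 against WT or in TG_PS19 against PS19, as log10(normalised CPM + 1) on the x axis, with 1 point per library. For all 14 genes, WT and TG_PS19 lie on the same side of both PS19 libraries. The genes were picked by these 2 comparisons, which share the PS19 libraries, so that the choice partly sets this pattern. For Elmo2, WT (26.6 normalised CPM) is close to PS19 replicate 2 (27.4).

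In TG_PS19 against WT, 4 of 475 pairs of a pathway gene and a class were called, against 1.8% of all gene and class pairs. All 4 were in dentate granule neurons, where 42 pathway genes were tested and 5.89% of all genes were called. Itgav, the integrin subunit that binds Mfge8, stood at 126 CPM in WT, 79.8 and 75.9 CPM in the PS19 pair and 56.2 CPM in TG_PS19, a change of −1.05 (edgeR adjusted p 4.11e-13). Mfge8 was lower by −0.86 and Ifnar2, a chain of the interferon receptor, by −0.56, while Xkr4, a scramblase, rose by 0.43 (edgeR adjusted p 0.0284, 0.0428 and 0.0111).

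The genes whose levels ran most alike to each member over 52 points, 13 groups of nuclei in each of 4 libraries, were named by the Pearson correlation of log2(CPM + 10) among 16181 genes. For Axl these were Loxl3 (r 0.90), Mmgt2, Lgals1, Pdgfrb and Slc7a2, and for Mertk they were Sat1 (r 0.92), Tlr3, Plekhf2, Crlf3 and Gna13. Pros1 was most like Ifnar2 (r 0.95), then Tlr4, Cflar, Etv6 and Hps3, and Gas6 was most like Glb1 (r 0.82), Ap3s1, Fnbp1l, Evl and Scamp1. Tyro3 was most like Gm19445 (r 0.93), Gm37443, Gm23214, Sytl2 and Kif6. Among the members themselves, Mertk and Pros1 correlated at 0.78, Axl and Mertk at 0.73 and Mertk and Tyro3 at −0.49. The points share libraries and depth, and the correlations are a description.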

How the data were processed

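Unique molecular identifiers (UMIs) per gene and nucleus were counted in 4 libraries of mouse hippocampal nuclei. The deposited values are raw UMI counts; per the file headers the authors' software was Cell Ranger 7.1.0. The build was GRCm38, per the submitters' processing notes. The annotation release and the counting of intron reads are not given in the sources used here. The members, gene lists and tests were chosen with earlier results of these data known.

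Nuclei with at least 500 UMIs, 300 genes and at most 5% mitochondrial UMIs were kept. Doublets were scored within each library in the manner of Scrublet and the highest scores removed, at 0.8% per 1000 nuclei (3.70% to 10.2% of barcodes). Clusters came from 2000 variable genes, without the 5 members, 30 components, 15 neighbours and leidenalg 0.10.2 at resolution 1.0 (34 clusters; Python 3.11.15, numpy 2.4.6, scipy 1.17.1). Classes were named from 18 marker lists, and a class was tested with at least 50 nuclei in every library. Poisson intervals (95%), exact binomial shares and the limit of 3 counts for a count of 0 allow for counting error alone.

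Counts summed per class and library went into edgeR 4.0.16, run in R 4.3.3 beside limma 3.58.1. Low counts were removed by filterByExpr, libraries were scaled by TMM, and the quasi-likelihood F test was read at an adjusted p of 0.05. In 10 of 13 groups the prior degrees of freedom were infinite. On simulated counts for PS19 against WT, the fit recovered 39% of 2-fold and 72% of 4-fold changes over 10696 microglial genes. Of its 121 calls, 10 were false. The simulation gave every library the same spread. It therefore could not check whether the lone WT and TG_PS19 libraries vary like the PS19 pair. The PS19 pair differed beyond sampling noise in all 13 groups (chi-square per degree of freedom 1.61 to 2.46). Alternatives were DESeq2 1.42.0, other scalings, no filter, a robust prior, doublets kept, resolutions 0.5 and 2.0, thinning to 1000 UMIs, TG_PS19 nuclei by sex call, and leaving out a PS19 library. Named were the 5 members, at most 10 pathway genes per comparison by size of change in microglia, astrocytes or the class with most calls, and the 5 genes most like each member.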

Additional observations from a re-analysis of the deposited data

Results flagged for a closer look

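The change of Axl differed between microglia and each of 4 other classes, by a class by group test chosen after the calls were seen. In PS19 against WT, the log2 change in microglia minus that in the other class was 2.98 for astrocytes, 2.71 for fibroblasts, 3.33 for mural cells and 3.01 for oligodendrocyte precursors. In TG_PS19 against PS19 the same differences were −4.25 for astrocytes, −4.27 for fibroblasts, −3.73 for mural cells and −4.06 for oligodendrocyte precursors. The 2 comparisons share the PS19 libraries.

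Pros1 changed in opposite directions in oligodendrocytes and the other excitatory neurons in TG_PS19 against PS19. A class by group test, also chosen after the calls were seen, put the difference between the classes at −2.27. The level in the neurons rests on 46, 11, 17 and 57 UMIs in the order WT, PS19, PS19 and TG_PS19.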

How the results depend on the processing

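No paired analysis was possible because WT and TG_PS19 had 1 library each, so that any 2 groups share fewer than 2 replicate numbers. The fits without a PS19 library have no residual degrees of freedom and gave values only. Axl in microglia ranged from 2.81 to 3.14 in PS19 against WT and from −4.48 to −4.16 in TG_PS19 against PS19 when a PS19 library was left out. It was called in 10 of 11 and 12 of 13 alternatives, the exception being the larger microglial cluster alone (2.36 and −2.65). That fit leaves out the smaller cluster, whose nuclei were mostly from PS19, and in it Axl passed the filter only through the PS19 libraries. Why the call was lost there was not tested. Calls of members in PS19 against WT went from 3 to 1 with DESeq2 and to 1 with thinning. In TG_PS19 against PS19 they went from 6 to 1 with DESeq2, 1 with thinning and 1 with TG_PS19 nuclei called by Y alone. In TG_PS19 against WT the count of 1 became 0 with DESeq2, without the filter, with doublets kept, with thinning and with Y-called nuclei, and 2 with adjusted residual degrees of freedom (added later) and with Xist-called nuclei. Calls of pathway genes went from 34 to 3 with DESeq2 and 15 with thinning in PS19 against WT. They went from 28 to 2 with DESeq2, 8 with thinning and 13 with Y-called nuclei in TG_PS19 against PS19, and from 4 to 1 with DESeq2, 2 at resolution 2.0 and 2 with Y-called nuclei in TG_PS19 against WT. With Y-called nuclei, Mertk in astrocytes reversed to −0.036 and Pros1 in the other excitatory neurons to −0.15. Thinning and the sex calls leave fewer UMIs; otherwise the cause was not tested. DESeq2 gave no adjusted p for 4 called pairs, and 2 called pairs were filtered out, Mertk in the Enpp6 cluster by thinning and Pros1 in the other excitatory neurons by thinning and at resolution 2.0. The class with the highest level of each member was the same under all 4 alternatives run.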

Other observations

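Classes too small to test also held Gas6. In choroid plexus epithelium, the secretory lining of the ventricles, Gas6 stood at 182 CPM (122 to 261) in PS19 replicate 1, 248 CPM (179 to 336) in replicate 2 and 178 CPM (127 to 244) in TG_PS19, from 25, 24 and 38 nuclei. Ependymal cells, with 27 nuclei in PS19 replicate 1, had 263 CPM (168 to 391). An unnamed cluster led by the macrophage gene Mrc1 held 33 WT, 6 and 12 PS19 and 15 TG_PS19 nuclei. Its Mertk level was 345 CPM in WT and 776 CPM in TG_PS19, below the microglia of the same libraries, and its Gas6 level of 224 CPM in WT was above them.

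Pros1 in TG_PS19 microglia parted by sex call, with 318 CPM (266 to 376) in 234 nuclei called by Xist and 537 CPM (425 to 670) in 79 called by Y-linked UMIs, although the whole library (368 CPM) lay within the range of the others. In astrocytes the same split gave 19.5 CPM (14.5 to 25.5) and 35.0 CPM (26.3 to 45.7). Mertk in astrocytes parted the other way, as given above, and Mertk in inhibitory neurons did so from few UMIs (32.3 CPM, 20.02 to 49.4, against 3.89 CPM, 0.472 to 14.1), while Axl in astrocytes did not part (47.9 and 48.0 CPM).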
